A study of Mus musculus with 22 samples.

Results

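The mirtrons examined here were miR-877, miR-1224 and miR-3102, represented by the arms mmu-miR-877-5p, mmu-miR-877-3p, mmu-miR-1224-5p, mmu-miR-3102-5p and mmu-miR-3102-3p, written below without the species prefix. They were found by their names in the scanner output and made up 5 of 1881 mouse miRNAs, read by 14 of 4415 probes. The 22 microarrays held RNA of the small intestine, serum and feces of male mice aged 8 weeks that had received 10 Gy of X-rays at 1.0 Gy per minute or 0 Gy, and the series asked which miRNAs differed with dose in each of these sources. There were 4 arrays per dose of intestine and of feces, 4 of serum at 10 Gy and 2 of serum at 0 Gy. The labels give neither a strain nor the time between irradiation and collection, and they do not say whether replicates came from separate mice, so p-values measure only the spread between these samples. The 5 arms were selected by family with their intestinal dose differences already known. Every comparison with intestinal arrays on either side is therefore described with no p-value.

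A mirtron is a short intron whose spliced and debranched lariat folds into a precursor hairpin, so splicing takes the place of the cut that the nuclease Drosha makes in other primary miRNA transcripts. The hairpin is then cut by Dicer, and 1 of its arms, named 5p or 3p by its side of the hairpin, is loaded into an Argonaute protein, where the seed near its 5′ end pairs with target mRNAs. Intron splice signals shape these miRNAs: the 5p arm can start at the GU of the 5′ splice site, and the 3p arm lies against the pyrimidine-rich tract and AG of the 3′ splice site.

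The mature sequences, taken from RefSeq (GRCm38.p6), are shown because base composition and the seed separate the arms; capitals mark the seed, bases 2 to 8.
miR-877-5p: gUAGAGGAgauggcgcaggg
miR-877-3p: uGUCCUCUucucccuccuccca
miR-1224-5p: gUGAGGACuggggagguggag
miR-3102-5p: gUGAGUGGccaggguggggcug
miR-3102-3p: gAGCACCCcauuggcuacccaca
No 2 of the 5 arms share a seed. Among the 1679 mature sequences of the table, miR-702-5p has the seed of miR-3102-5p, and no other sequence has the seed of any of the 5 arms. Guanine made up 55% of miR-877-5p, 61.9% of miR-1224-5p and 59.1% of miR-3102-5p, against a median of 26.3% over the 1608 array miRNAs with a RefSeq sequence. The 3p arms were low in guanine, with 4.55% in miR-877-3p and 17.4% in miR-3102-3p, and pyrimidines made up 90.9% of miR-877-3p. The 3 5p arms therefore look alike by composition while carrying different seeds.

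Mir877 lies at chr17:35960730-35960814 on the minus strand, within Abcf1, which encodes an ATP-binding cassette protein that acts in translation. Mir1224 lies at chr16:20604452-20604536 on the plus strand, within Vwa5b2, a gene of the von Willebrand factor A domain family. Mir3102 lies at chr7:100882306-100882409 on the minus strand, within Arhgef17. The hairpins of Mir877 and Mir1224 are shown for the intron signature at their ends, with the mature arms in capitals. The ends of the Mir3102 hairpin were not examined here.
Mir877: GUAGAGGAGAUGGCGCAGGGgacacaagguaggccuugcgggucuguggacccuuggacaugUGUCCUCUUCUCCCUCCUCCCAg
Mir1224: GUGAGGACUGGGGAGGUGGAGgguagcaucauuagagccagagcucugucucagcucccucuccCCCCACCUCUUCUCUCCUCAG
Both hairpins are 85 bases long, start with GU and end with AG. Of 1005 mouse hairpins in the same table, 30 (2.99%) start and end in this way.

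Signals are the summed processed fluorescence of a miRNA's probes, in the scanner's linear units. Detection required that 50% or more of the spots of any 1 probe stood well above background. miR-1224-5p and miR-3102-5p were detected on all 22 arrays, miR-877-5p on 16, miR-3102-3p on 5 and miR-877-3p on 4. The array also read the remaining arms of these hairpins. miR-1224-3p was not detected on any of the 22 arrays, with signals of at most 3.51. The inner pair of the Mir3102 hairpin, miR-3102-5p.2-5p and miR-3102-3p.2-3p, was detected on 22 arrays and on 8 arrays, the latter being all 8 fecal arrays. Since probes differ in brightness, no arm's level was set against another's.

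The arrays detected 378 to 675 miRNAs in feces at 0 Gy, 445 to 494 in feces at 10 Gy, 285 to 300 and 332 to 389 in intestine at 0 and 10 Gy, and 175 to 219 and 131 to 176 in serum. Feces at 0 Gy replicate 3 stood apart with 675 miRNAs and a scaling value (the 75th percentile of its shared miRNAs) of 2627, while the lowest fecal array had 529. Intestine, serum and feces occupied 1 slide each, and on each slide the doses filled separate columns, so sample type cannot be told apart from slide, nor dose from slide column. Every slide row held both doses. All 6 epithelial marker miRNAs were detected on every intestinal array and none in serum; 5 of 6 were detected on every fecal array, miR-31-5p being absent. Summed signals of the 3 erythrocyte markers were 4602 to 9070 in serum at 0 Gy and 728 to 2402 at 10 Gy, with miR-144-3p not detected; their part in the serum values was not tested. In intestine the unscaled sums at 0 and 10 Gy were 39082 to 64883 and 36978 to 54499 for epithelial markers and 1992 to 2724 and 3236 to 4031 for smooth muscle markers. They were 860.1 to 1708 and 939.1 to 1732 for leukocyte markers, 111 to 198 and 196 to 359 for erythrocyte markers and 21.2 to 39.6 and 43.6 to 52.8 for neuronal markers. Scaled differences of the 6 epithelial markers lay between -0.79 (mmu-miR-200c-3p) and -0.61 (mmu-miR-192-5p), and all but mmu-miR-194-5p and mmu-miR-215-5p passed. After scaling, the 4 smooth muscle markers differed by between 0.06 (mmu-miR-1a-3p) and 0.25 (mmu-miR-145a-5p) without passing, while mmu-miR-150-5p (-2.32), mmu-miR-142a-3p (-1.04), mmu-miR-142a-5p (-1.001) and mmu-miR-223-3p (1.199) of the leukocyte list and mmu-miR-486a-5p (0.66) of the erythrocyte list passed. The part of any of these markers in the intestinal values was not tested. miR-122-5p, the hepatocyte miRNA, was not detected on any array.

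**Figure D1:**
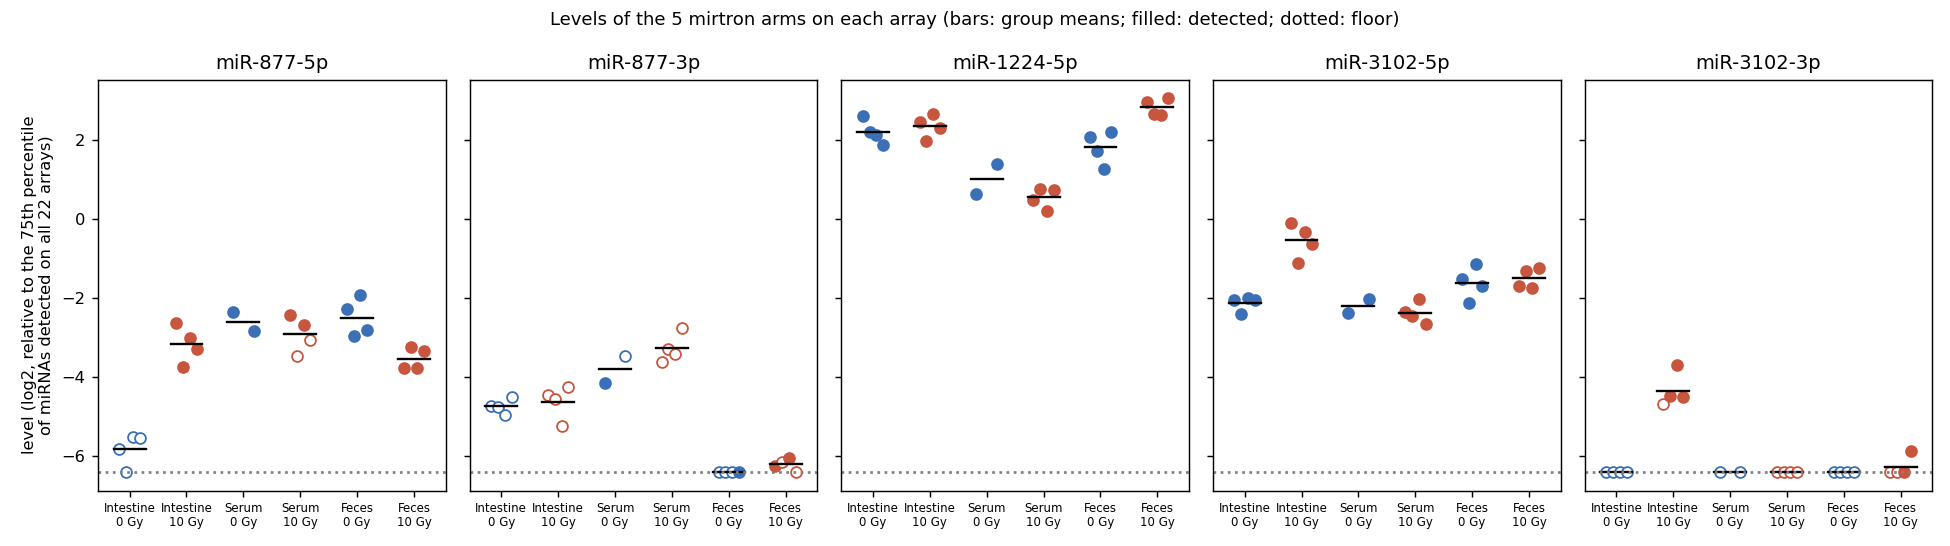
Level of each arm on each of the 22 arrays (y axis, log2, scaled on the 81 miRNAs that all 22 arrays detected) in the 6 groups of sample type and dose (blue 0 Gy, red 10 Gy); black bars are group means, filled circles are arrays on which the arm was detected, and the dotted line is the floor to which lower values were raised. Levels are comparable within a panel only; under this scaling miR-877-5p was lowest in intestine at 0 Gy (not with normexp), miR-3102-5p highest in intestine at 10 Gy (not with 3 other scalings) and miR-1224-5p lowest in serum (at 0 Gy not with quantile normalization).

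In the intestine, miR-877-5p and miR-3102-5p were brighter at 10 Gy than at 0 Gy on every array, while miR-1224-5p overlapped between doses. The signals of miR-877-5p at 0 Gy were 10.3, 4.76, 13.01 and 10.5 on the 4 arrays, none of them detected, and 87.5, 80.5, 151 and 68.3 at 10 Gy, all 4 detected. The dose groups did not overlap. After scaling each array by its 75th percentile, the log2 difference of the means was 2.67 ± 0.20 (SE, n = 4 and 4). Because no probe was well above background at 0 Gy, that value rests on signals too dim to measure. The 3 probes detected on all 4 arrays at 10 Gy were at least 1.34-fold, 1.47-fold and 1.49-fold brighter, computed against the dimmest probe well above background on each 0 Gy array, and the remaining probe, detected on 3 of 4 arrays, at least 1.08-fold. With the normexp background correction, which adds an offset of 50 to every spot, the difference was -0.033. Mean probe signals of this arm were 1.49 to 3.11 at 0 Gy and 19.7 to 26.5 at 10 Gy. The offset exceeds these signals, so the -0.033 does not decide whether the arm differed.

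miR-3102-5p had signals of 141, 106, 151 and 117 at 0 Gy and 508, 504, 968 and 432 at 10 Gy. The groups were well separated on an arm that all 8 arrays detected. The log2 difference was 1.70 ± 0.21 (SE), and the 2 probes of this arm gave 1.71 and 1.70 separately. Within the upper row of the slide it was 1.68 and within the lower row 1.77, and for miR-877-5p the same rows gave 2.80 and 2.61.

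Its partner arm, miR-3102-3p, had signals of 4.401, 1.94, 3.48 and 3.56 at 0 Gy and 21.0, 48.8, 93.3 and 29.2 at 10 Gy, where 3 of 4 arrays detected it. The arm was therefore not well above background on any array at 0 Gy, and its 2 probes were at least 1.16-fold and 1.22-fold brighter at 10 Gy. It was detected on too few arrays for the fit. The inner arm miR-3102-5p.2-5p, from the same hairpin, differed by 0.21 ± 0.28, with 72.1, 55.3, 78.3 and 39.4 at 0 Gy and 61.8, 147, 118 and 74.2 at 10 Gy. The outer and inner 5p arms of one hairpin thus had unlike dose differences in the same RNA; the difference between them was not tested.

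miR-1224-5p had signals of 3559, 2570, 2632 and 1805 at 0 Gy and 2989, 4316, 7631 and 3269 at 10 Gy. Scaled values overlapped between doses, with a log2 difference of 0.26 ± 0.26, and it was -0.12 in the upper slide row and 0.68 in the lower. The sign of this difference also turned, to -0.26, when the scaling percentile was taken over all miRNAs. miR-877-3p was not detected in intestine at either dose. Of the 335 intestinal miRNAs tested, 41.8% passed an adjusted p of 0.05 in limma and 39.4% had groups that did not overlap; 2 of the 3 tested arms passed, from which nothing is read since they were picked with this contrast known. The median difference of all tested miRNAs was 0.16, and it ranged from -0.35 to 0.62 over the scalings tried.

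**Figure D2:**
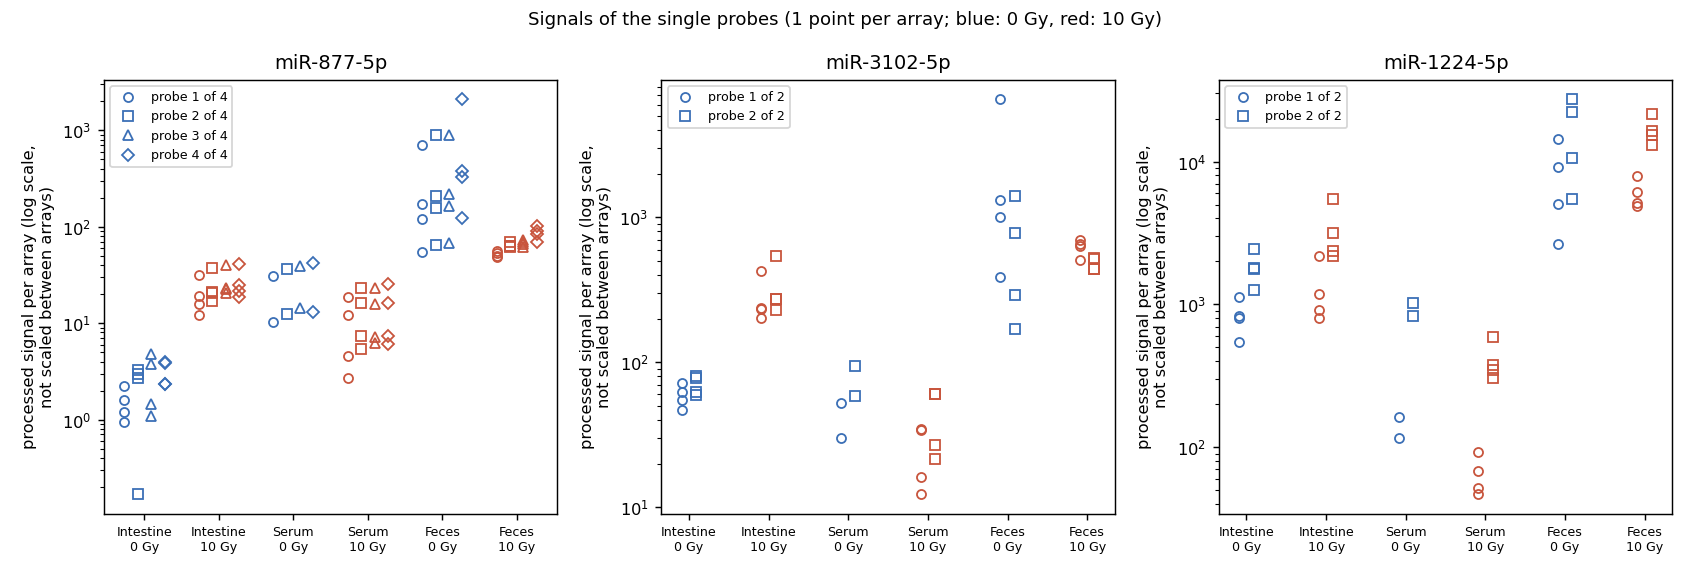
Processed signal of each single probe (y axis, log scale, not scaled between arrays) of miR-877-5p, miR-3102-5p and miR-1224-5p in the 6 groups, 1 point per array, marker shape by probe, blue 0 Gy and red 10 Gy. The miR-877-5p probes lay between 0.17 and 4.78 in intestine at 0 Gy, and the first miR-3102-5p probe had its highest value, 6520, on 1 fecal array at 0 Gy.

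In feces miR-877-5p was lower and miR-1224-5p higher after scaling at 10 Gy on every array, but neither passed the threshold over all miRNAs, and miR-3102-5p overlapped. The signals of miR-877-5p were 769, 312, 4565 and 971 at 0 Gy and 278, 301, 261 and 242 at 10 Gy. Every 10 Gy array was below every 0 Gy array, and the 4565 came from the replicate that stood apart. The scaled log2 difference was -1.27 ± 0.36 (SE, n = 4 and 4; limma, adjusted p = 0.0662). All 4 probes gave negative differences, between -1.65 and -1.03, each with groups that did not overlap. Without replicate 3 at 0 Gy the difference was -0.93 (limma, adjusted p = 0.0758). Within the upper and lower slide rows it was -1.03 and -1.41.

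miR-1224-5p had unscaled fecal signals of 15595, 8084, 41667 and 31487 at 0 Gy and 29489, 18039, 22496 and 20424 at 10 Gy. These overlapped, but scaled levels did not: they were 4.22, 3.93, 3.99 and 4.24 at 0 Gy and 5.11, 4.55, 4.83 and 5.04 at 10 Gy (log2 relative to the array's 75th percentile). The difference was 0.79 ± 0.22 (limma, adjusted p = 0.0662), 0.76 and 0.90 within the slide rows, and 0.14 without scaling. Its 2 probes gave 0.50 and 0.91.

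miR-3102-5p had fecal signals of 1289, 556, 7933 and 2106 at 0 Gy and 1174, 1143, 1071 and 1032 at 10 Gy, so the 0 Gy arrays spread far wider. The scaled difference was -0.11 ± 0.33 (limma, adjusted p = 0.833). This near-zero value joined 2 probes that disagreed: one gave -0.48 ± 0.41 with overlapping groups, and the other 0.64 ± 0.22 with groups that did not overlap. Without replicate 3 at 0 Gy the arm's difference was 0.21. The same 2 probes had agreed closely in intestine.

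Of the 491 fecal miRNAs tested, 7.54% passed and 29.1% had groups that did not overlap; 0 of the 3 tested arms passed in limma, and 2 had an unadjusted p under 0.05 (0.0061 for miR-1224-5p, 0.0062 for miR-877-5p), as had 39.1% of all tested fecal miRNAs. Both passed in 4 alternative fits. In 3 of these many more miRNAs passed as well: 20.6% of all with log2 values averaged over probes, 35% with array weights and 20.4% with all 6 groups in 1 fit. The remaining fit set no filter and called 66% of 1881 miRNAs. Its median difference was -1.8e-15, a rounding residue of values held at the floor, so the 66% gives no background rate. Without 0 Gy replicate 4 both arms passed, as did 30.9% of all. No 0 Gy fecal array detected miR-3102-3p but 2 of 4 did at 10 Gy. Its signals overlapped between doses, with 19.8, 6.21, 19.2 and 14.8 at 0 Gy and 14.5, 20.3, 24.7 and 42.3 at 10 Gy. miR-877-3p was detected on 1 array at 0 Gy and 2 at 10 Gy, with signals of 26.8 to 48.9 and 27.9 to 54.6. In such samples fewer cells of a type and less RNA per cell cannot be told apart.

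In serum no tested arm separated the doses. The signals of miR-877-5p were 149 and 50.04 at 0 Gy and 90.2, 21.3, 59.9 and 25.6 at 10 Gy, with both arrays at 0 Gy and 2 of 4 at 10 Gy detecting it. Scaled values overlapped, with a difference of -0.28 ± 0.32 (SE, n = 2 and 4; limma, adjusted p = 0.654). miR-1224-5p had 1183 and 938 at 0 Gy and 682, 399, 445 and 354 at 10 Gy. All 10 Gy signals were lower, yet scaled values overlapped and differed by -0.43 ± 0.32 (limma, adjusted p = 0.539). miR-3102-5p had 147 and 88.5 at 0 Gy and 94.9, 43.0, 94.6 and 34.0 at 10 Gy, a scaled difference of -0.14 ± 0.24 (limma, adjusted p = 0.751).

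The serum differences did not pass the threshold, and with 2 arrays at 0 Gy single arrays moved them. Without the first 0 Gy array miR-1224-5p differed by -0.88, and without the second by 0.0027. miR-877-3p was detected on 1 serum array at 0 Gy, and miR-3102-3p on none, with signals between -2.87 and 0.74. Of the 193 serum miRNAs tested, 4.66% passed, 30.1% had groups that did not overlap and 20.7% had an unadjusted p under 0.05. Of the 3 arms 0 passed in limma and 0 had an unadjusted p under 0.05.

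**Figure D3:**
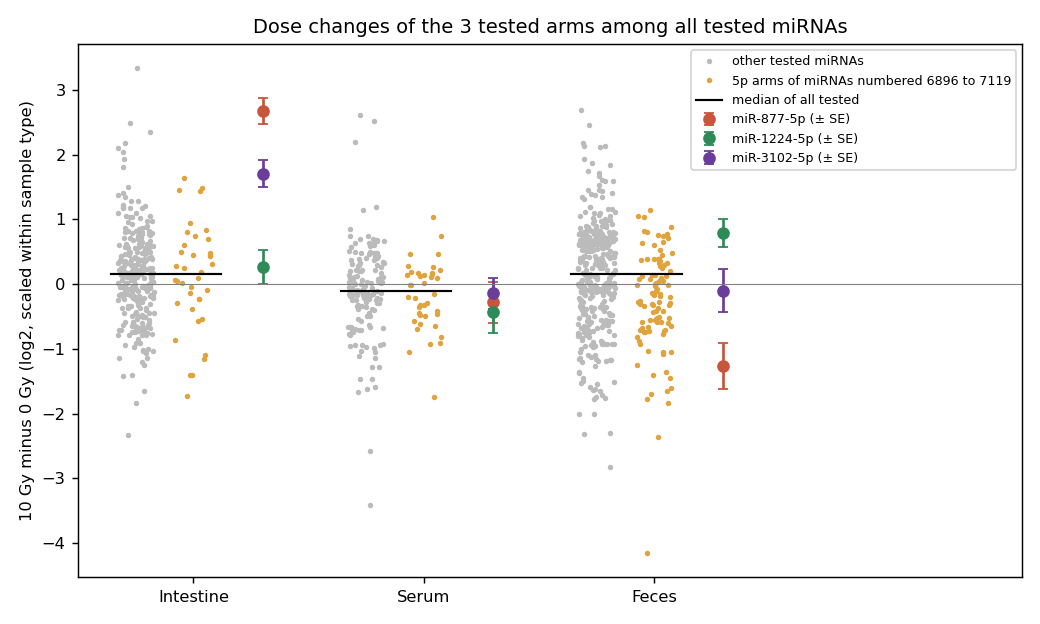
Dose difference (y axis, 10 Gy minus 0 Gy, log2, scaled within sample type) of the 3 tested arms with SE bars, beside all other tested miRNAs (gray) and the 5p arms of the numbered mirtron block in orange, 1 point per miRNA; black lines are medians of all tested. miR-877-5p was at 2.67 in intestine, -0.28 in serum and -1.27 in feces, while the 3 arms in serum lay between -0.43 and -0.14.

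Across the 6 groups, on a scale common to all 22 arrays, miR-877-5p was set apart in 1 group. Its mean log2 level was -5.83 ± 0.41 (SD) in intestine at 0 Gy, and between -3.55 and -2.51 in the other 5 groups, each of which overlapped its neighbour in the order. miR-877-5p was detected on 0 of 4 intestinal arrays at 0 Gy, so the -5.83 is a background value. With normexp correction its difference between feces and intestine at 0 Gy turned to -0.83. miR-3102-5p was highest in intestine at 10 Gy, at -0.55 ± 0.44, apart from the next group, feces at 10 Gy at -1.51 ± 0.25; the other neighbours overlapped. Its place at the top depends on the scaling, since feces at 10 Gy was higher by 0.31, 0.15 and 0.95 with quantile normalization, a percentile over every miRNA and no scaling. miR-1224-5p ran from 2.82 ± 0.21 in feces at 10 Gy to 0.54 ± 0.26 in serum at 10 Gy with every neighbouring pair overlapping.

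The contrasts of feces and serum compared no intestinal values. The intestinal arrays still entered the scaling, the floor and the estimate of spread, so the p-values are not independent of them. miR-1224-5p was higher in feces than in serum, by 0.81 ± 0.27 at 0 Gy (limma, adjusted p = 0.0176) and by 2.28 ± 0.22 at 10 Gy (limma, adjusted p = 5.9e-08). Its sign held in all 5 scaling and background settings, between 0.81 and 4.26 at 0 Gy and between 1.99 and 5.61 at 10 Gy, though without serum 0 Gy replicate 1 the 0 Gy difference was 0.43 and did not pass. miR-3102-5p was higher in feces by 0.87 ± 0.22 at 10 Gy (limma, adjusted p = 0.0020), but -0.0803 after normexp correction, and by 0.58 ± 0.27 at 0 Gy (limma, adjusted p = 0.0805). miR-877-5p differed by 0.11 ± 0.35 at 0 Gy and by -0.63 ± 0.29 at 10 Gy (limma, adjusted p = 0.902 and 0.0601), the latter turning to 2.70 without scaling. Single arrays decided some of these calls. Without feces 0 Gy replicate 2, miR-3102-5p differed by 0.87 at 0 Gy and passed (limma, adjusted p = 0.0116), and miR-877-5p passed at 10 Gy at -0.72 without feces replicate 2 and at -0.81 without serum replicate 2.

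miR-877-3p was detected on 1 of 4 fecal and 1 of 2 serum arrays at 0 Gy, with unscaled signals averaging 35.5 and 37.9. All 4 fecal values lay at the floor after scaling, so its fitted difference is set by floor and scaling and is not given, although it passed the threshold. Without feces 0 Gy replicate 4 or serum 0 Gy replicate 1, the arrays that detected it, the arm was not tested. The share of all miRNAs that passed was 56.5% at 0 Gy and 73.6% at 10 Gy, beside 2 of 4 tested arms (miR-877-3p among them) and 2 of 3, so the arms were near the background. Scaling moved the median of all miRNAs at 10 Gy from 0.36 to 2.87 without scaling.

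Against intestine at 0 Gy, where miR-877-5p was not detected, its probes were at least 1.31-fold to 3.31-fold brighter in feces and at least 1.52-fold to 2.02-fold brighter in serum. In serum 2 of these 4 probes were detected on 1 of 2 arrays. At 10 Gy miR-877-5p differed from intestine by -0.37 ± 0.29 in feces and 0.26 ± 0.29 in serum, and over the other settings these ran from -1.11 to 1.55 and from -1.16 to 1.99, so neither has a settled direction. miR-3102-5p at 10 Gy was lower in serum than in intestine by -1.83 ± 0.22, and between -3.25 and -0.12 over the scalings; in feces it was -0.96 ± 0.22, turning to 0.95 without scaling.

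miR-1224-5p at 10 Gy was lower in serum than in intestine, at -1.80 ± 0.22 and between -3.22 and -0.13 over the scalings. The median of all 339 miRNAs tested in this contrast was -1.82, and 248 of them lay below 0. The values of miR-1224-5p and miR-3102-5p were therefore near that of a typical tested miRNA. All contrasts with intestine share the intestinal arrays, and percent passing was 82.5% and 78.3% for feces and 87.2% and 87% for serum at 0 and 10 Gy, from which nothing is read for the arms.

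Other Drosha-independent miRNAs listed for comparison were miR-702, another mirtron, and the capped or otherwise directly produced miR-320 and miR-484. miR-702-5p, with the seed of miR-3102-5p, was not detected on any array. In the intestine 1 of 3 tested passed (all tested, 41.8%), miR-320-3p at 0.48 ± 0.17, while miR-702-3p differed by 0.33 ± 0.18 and miR-484 by -0.37 ± 0.18. At 0 Gy miR-320-3p was detected on 2 of 4 intestinal arrays and miR-702-3p on 0 of 4, so their differences rest on signals near background. In feces 0 of 3 passed in limma (all tested, 7.54%), with miR-320-3p at -0.96 ± 0.37, miR-484 at 0.71 ± 0.25 and miR-702-3p at 0.68 ± 0.25. All 3 had an unadjusted p under 0.05, as had 39.1% of all tested fecal miRNAs. miR-484 was detected on 2 of 4 fecal arrays at 0 Gy and 3 of 4 at 10 Gy. Unscaled fecal means at 0 and 10 Gy were 33.6 and 28.8 for miR-484 and 52.0 and 48.0 for miR-702-3p. These means were thus lower at 10 Gy, as was that of miR-320-3p. How far dim signals and scaling set the positive differences was not tested. In serum 0 of 3 passed in limma (all tested, 4.66%) and 0 had an unadjusted p under 0.05 (all tested, 20.7%).

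A block of miRNAs with consecutive high catalogue numbers, many of them annotated as mirtrons, gave a wider group of 205 5p and 204 3p arms. Of 38 tested 5p arms in intestine, 10 passed upward and 4 downward (all tested miRNAs, 26% and 15.8%), with a median of 0.14 against 0.16 for all tested miRNAs. miR-7118-5p (1.64) was the highest and miR-7002-5p (-1.73) the lowest. Of 101 tested in feces, 1 passed upward, miR-7016-5p at 1.14, and 7 downward, the lowest being miR-7083-5p at -4.15 (all tested, 3.46% and 4.07%), with a median of -0.26 against 0.15. In serum 1 of 40 passed, miR-7031-5p at -1.74 (all tested, 1.04% upward and 3.63% downward), with a median of -0.18 against -0.11. No 3p arm of this group was tested in intestine, and 0 of 30 passed in feces (all tested, 7.54%). Their fecal median was 0.68 against 0.15 for all tested, and 27 of 30 lay above 0, against 275 of 491. Only these 30 of the 204 3p arms were tested in feces. Fecal scaling values were 529 to 2627 at 0 Gy and 620 to 853 at 10 Gy. Without scaling the median of all tested was -0.49. How far dim signals and scaling set the 3p values was not tested, so their skew is not read as an effect of dose.

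**Figure D4:**
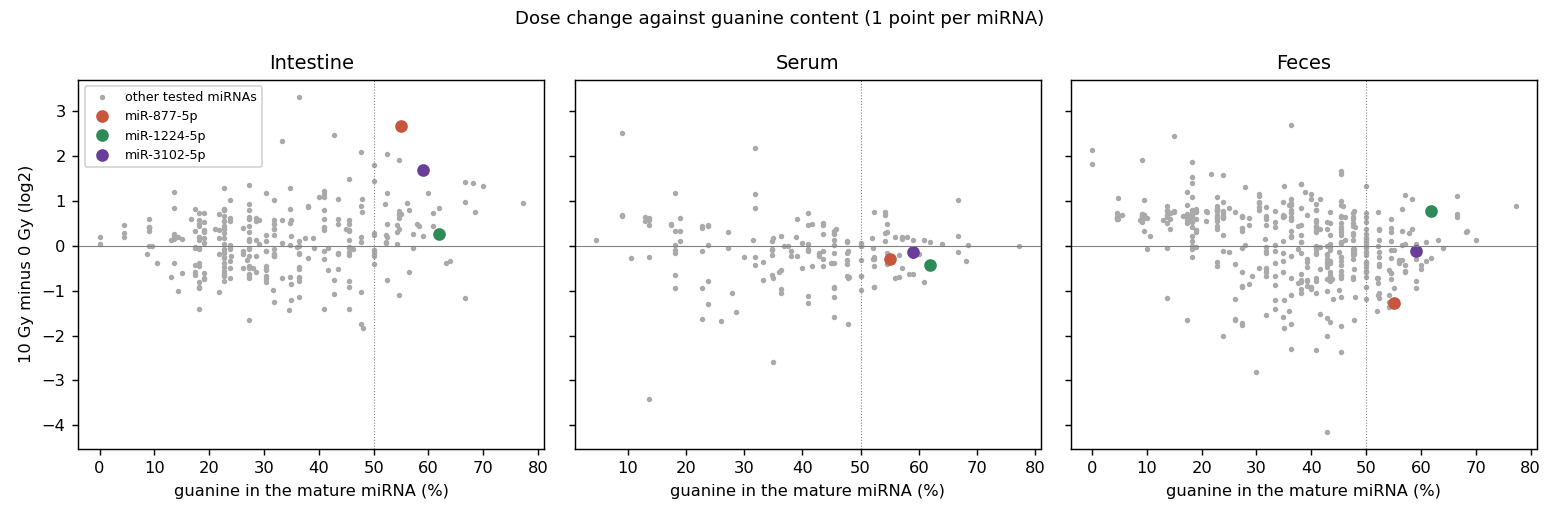
Dose difference (y axis, log2) of each tested miRNA with a RefSeq sequence against its guanine content (x axis, percent) in intestine, serum and feces; colored points are the 3 tested arms and the dotted line marks 50%. miR-877-5p and miR-3102-5p lay above most guanine-rich miRNAs in intestine. Nothing is read from this, since the arms were picked with this contrast known, and miR-877-5p was not detected in intestine at 0 Gy. In feces miR-877-5p lay below most guanine-rich miRNAs.

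Guanine content, which the choice of arms did not use, was set against the dose difference over the other miRNAs. In intestine, 51 miRNAs with at least 50% guanine had a median of 0.46, against 0.04 for 237 with less, and 23 of the 51 passed upward and 2 downward, against 53 and 47 of the 237. In feces the medians were -0.14 for 90, of which 3 passed upward and 2 downward, and 0.38 for 331, of which 9 and 16 did. In serum they were -0.10 for 50 and -0.10 for 112. Across miRNAs, which are not independent replicates and share arrays and labeling, Pearson's r was 0.19 over 288, -0.32 over 421 and -0.09 over 162 in intestine, feces and serum.

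By Pearson correlation over 22 arrays among 261 miRNAs, the ones most like miR-877-5p were miR-7040-5p (0.83), miR-721 (0.80) and miR-328-5p (0.80). miR-1224-5p was most like miR-1934-3p (0.90), miR-652-5p (0.87) and miR-6997-5p (0.87). miR-3102-5p was less closely matched, with miR-705 at 0.76 and miR-34a-5p and miR-3081-5p at 0.62 each. Among themselves, miR-1224-5p and miR-3102-5p had 0.55, miR-877-5p and miR-3102-5p 0.28, and miR-877-5p and miR-1224-5p -0.36. These values share the 3 slides and their scaling and are given as a description. For miR-877-5p they also include the undetected intestinal arrays at 0 Gy, with a mean level of -5.83 against -3.55 to -2.51 in the other groups. Its correlations therefore rest in part on background values, and the intestinal arrays had informed the choice of arms.

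**Figure D5:**
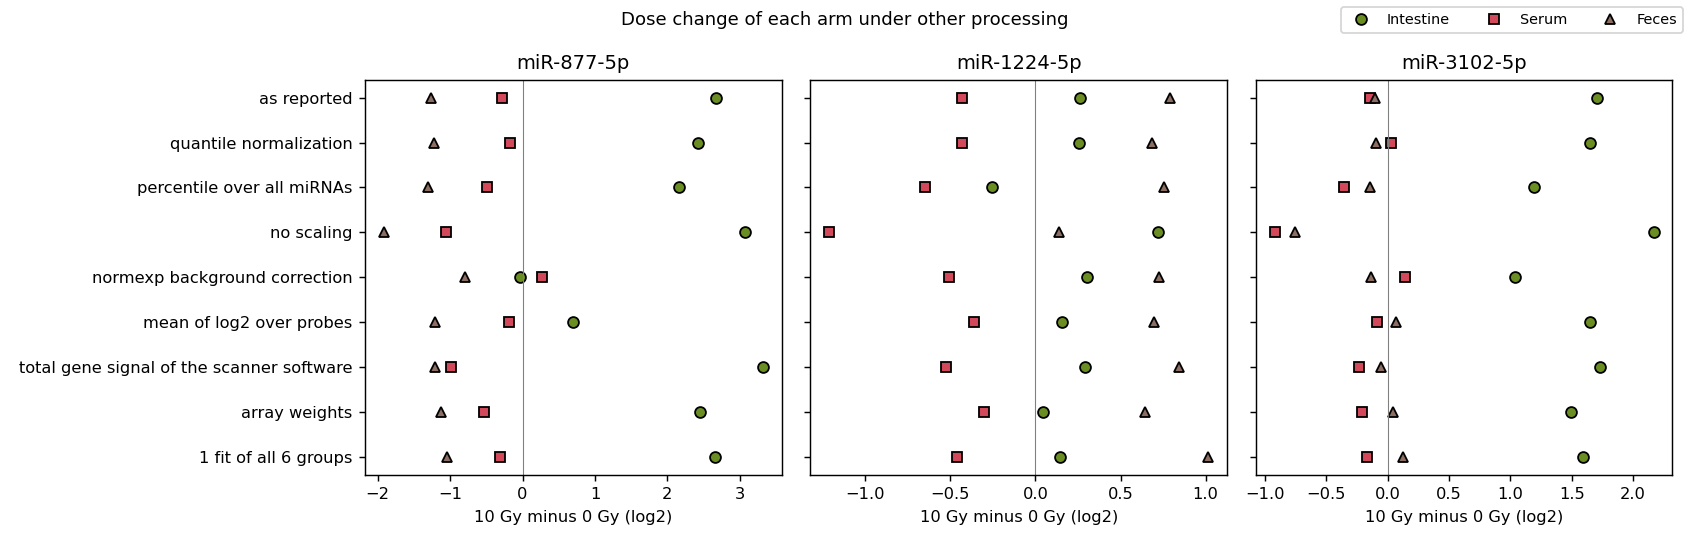
Dose difference (x axis, 10 Gy minus 0 Gy, log2) of miR-877-5p, miR-1224-5p and miR-3102-5p under the reported processing and 8 alternatives (y axis), by sample type. The miR-877-5p intestinal value was -0.033 with normexp correction and 0.69 with log2 values averaged over probes, while miR-3102-5p stayed between 1.03 and 2.17 in intestine.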

How the data were processed

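Agilent 1-colour miRNA arrays were scanned and read with Agilent Feature Extraction 11.5, per the submitters' processing notes. The deposited files hold, per spot, the processed signal intensity and the median intensity of spot and local background, and other columns hold flags set by the authors' software for spots well above background or outlying; per the labels the arrays measured miRNAs labelled with Cy3 from total RNA. Here the processed signal was averaged over non-outlying spots of a probe, summed over probes, divided by each array's 75th percentile over miRNAs detected on all arrays of a sample type (of all 22 arrays for comparisons between types) and raised to a floor, the median over arrays of the lowest detected value, before log2. Detection was first computed over all spots of a probe and then over non-outlying spots, which was kept after both had been run because it matched an earlier processing of these files. limma 3.58.1 in R 4.3.3 was run over all tested miRNAs with Benjamini-Hochberg adjustment at 0.05, and was tested on simulated data. For a dose comparison the number of arrays detecting a miRNA had to reach the size of the smaller group. Comparisons between types came from 1 fit of 6 groups over miRNAs detected on at least 4 arrays, with the same rule applied to the groups compared. Array number and signal over background limit the precision; no spot carries a count. The arms and lists were chosen with earlier results of these data known. Text names the 5 arms, the other arms of their hairpins, 5 other Drosha-independent miRNAs, the extremes of the numbered lists and the 3 miRNAs most like each widely detected arm. Alternatives covered background correction, scaling, floor, filter, probe summary, weights, fit, replicate block, slide row and each array left out.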

Additional observations from a re-analysis of the deposited data

Results flagged for a closer look

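The dose difference of miR-877-5p ran opposite ways in feces and intestine: in feces every scaled 10 Gy value was below every 0 Gy value (-1.27), and in intestine every 10 Gy value was above (2.67), a gap of -3.93 on the log2 scale. This gap was not tested. The intestinal value rests on 0 Gy signals below detection. It was -0.033 after normexp correction, whose offset of 50 exceeds the mean intestinal signal of each of its probes. The fecal value was -0.79 after this correction. In 18 combinations of arm and group checked for a single array far from the rest, 0 were marked. With at most 4 arrays per group such a check can mark little, so nothing is read from it.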

How the results depend on the processing

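The number of arms passing was recounted under each alternative. Where intestinal arrays are on either side, nothing is read from the count, since the arms were picked with the intestinal dose differences known. In intestine (2 passing, 41.8% of all) it was 1 with normexp (27.2% of all) and 1 when detection on every array was required (37.3%). In feces (0 passing) it was 2 with no filter, with log2 values averaged over probes, with array weights and with 1 fit of all groups, and 0 to 2 with single arrays left out. The share of all fecal miRNAs passing went from 7.54% to 66%, 20.6%, 35% and 20.4% in these 4 fits. The 66% counts miRNAs held at the floor and gives no background rate. Between feces and intestine at 0 Gy (2 passing) it was 1 with normexp, the doubled floor, detection on every array, averaged log2 values and array weights, and 1 to 2 with arrays left out. Between serum and intestine at 0 Gy (2 passing) it was 1 with normexp, when every miRNA entered the percentile and with detection on every array. Between feces and serum at 0 Gy (2 passing) it was 1 with detection on every array, averaged log2 values and the scanner software's total gene signal (an alternative chosen after seeing the data), and 0 to 3 with arrays left out. At 10 Gy it was 1 for feces against intestine (2 passing) with detection on every array. For serum against intestine (2 passing) it was 1 with quantile normalization and 4 with no filter or the total gene signal.

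Among arms that passed in either fit, signs turned as follows. With normexp, miR-877-5p was -0.033 in intestine by dose, -0.83 in feces against intestine and -1.001 in feces against serum at 0 Gy; miR-3102-5p was -0.14 in feces against intestine at 0 Gy and -0.0803 in feces against serum at 10 Gy. For feces against intestine, miR-1224-5p at 0 Gy was 1.47 after quantile normalization, 0.58 when every miRNA entered the percentile and 2.97 with no scaling; at 10 Gy miR-3102-5p was 0.31, 0.15 and 0.95 under these, and miR-877-5p 1.08 with quantile normalization and 1.55 without scaling. For serum against intestine at 0 Gy quantile normalization gave 0.55 for miR-1224-5p and 1.48 for miR-3102-5p. For feces against serum at 10 Gy miR-877-5p was 2.70 without scaling. Among differences that passed in neither, miR-877-5p turned to -1.16 without scaling for serum against intestine at 10 Gy and to 0.27 with normexp by dose in serum, miR-3102-5p by dose in feces to 0.21 without 0 Gy replicate 3 and miR-1224-5p by dose in serum to 0.07 within the upper slide row; further such turns occurred. The cause of these turns was not tested, though the normexp offset of 50 exceeds the mean intestinal signal of each miR-877-5p probe. Computing detection over all spots, also chosen after seeing the data, left every count of passing arms as it was.

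The labels do not say whether replicate numbers pair the samples, and the values do not settle it. Same-numbered deviations correlated between -0.57 and 0.44 across intestinal doses and between -0.43 and 0.40 across fecal doses. They were 0.24 and 0.40 across serum doses, and between -0.41 and 0.22 across sample types at 1 dose. With the replicate block, the count for feces against intestine at 0 Gy was 1, from 2, and no other count of passing arms moved by over 1.5 times. Signals near background limit miR-877-5p in intestine at 0 Gy, miR-877-3p and miR-3102-3p.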
